A study of Mus musculus with 32 samples.

Results

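Cirbp and Rbm3 encode cold-inducible RNA-binding proteins, and Csdc2 an RNA-binding protein with a cold-shock domain. Transcripts of all 3 were followed in mouse photoreceptors with and without functional Per1 and Per2. The 3 genes were chosen by name from the 54232 genes of the count table, with their levels over the 8 genotype-by-time groups already known, so those levels are described below and no test of them is given as a result. All 3 were among the 17871 genes that passed the low-count filter, which asks for at least 10 counts in as many libraries as a group holds, scaled by library size.

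Cirbp and Rbm3 are small proteins with an RNA recognition motif followed by a glycine-rich tail, and both are known in mammalian cells to accumulate when temperature falls a little below that of the body core. Their messages are among the transcripts known in mouse liver and in cultured cells to follow the daily rhythm of body temperature, and in mouse fibroblasts CIRBP has been reported to bind the Clock message. RBM3 is known for its part in translation and in the protection of synapses in cooled mice. Csdc2, also called Pippin, carries a cold-shock domain, a fold of another family, and was described in rat brain as a protein that binds messages of histone variants.

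The samples were photoreceptors (rods and cones, the cells that catch light), cut by laser from snap-frozen eyes of 6-week-old male mice on a mixed C57BL/6/J x 129 SvEvBrd background. The animals were Per1-/-Per2Brdm1 (KO) or wild type (WT), and eyes were collected at circadian times CT19 and CT22 (night of the internal day), CT1 (its dawn) and CT10 (its late day), around the daily peak of outer segment phagocytosis. There were 4 libraries in each of the 8 groups and 32 libraries in total, with between 23833604 and 34582742 counts each. The labels give neither body temperature nor room temperature. One library, WT CT1 replicate 5, carries 2 animal numbers, and WT CT10 replicate 5 came from a right eye whereas the others came from left eyes.

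Summed levels of 10 photoreceptor markers were 73900 to 108000 CPM (counts relative to library size, scaled by TMM) in KO and 79300 to 133000 CPM in WT. Markers of other eye cells were far lower but varied, the 14 lens markers between 259 and 7580 CPM in KO and between 73.7 and 13600 CPM in WT. Per1 stood at 170 to 323 CPM in KO and 94.4 to 146 CPM in WT, and Per2 at 168 to 267 CPM in KO and 15.2 to 44.3 CPM in WT. These are counts over whole genes, so they separate the genotypes but do not read the deleted parts. Any 2 libraries of a group differed by more than counting noise, with chi-square values of 12.02 to 107.40 per degree of freedom.

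Cirbp (ENSMUSG00000045193) lies on the plus strand of chromosome 10 at 80165985 to 80172786 (GRCm38), with 2604 annotated exon bases. Rbm3 (ENSMUSG00000031167) lies on the minus strand of chromosome X at 8138975 to 8145880, with 4698 exon bases, of which 94 are shared with the antisense gene Rbm3os. Csdc2 (ENSMUSG00000042109) lies on the plus strand of chromosome 15 at 81936759 to 81950941, with 4623 exon bases. The counting strand is not given in the sources used here, but Rbm3os held 402 counts over the 32 libraries against 56375 for Rbm3. Of the 50-base windows in the annotated transcripts, 0 of 2693 in Cirbp, 488 of 5024 in Rbm3 and 19 of 4617 in Csdc2 also occur in another gene. The pseudogene Rbm3-ps is among those that share windows with Rbm3, and it held 1656 counts, or 2.94% of the Rbm3 total, so Rbm3 carries that uncertainty.

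The Cirbp promoter is shown because a short element in it, TCCCCGCC, has been reported to respond to mild cold in mouse cells. In the 300 bases around the first RefSeq start site of Cirbp (GRCm38.p6, chr10:80167589-80167888, plus strand, from 250 bases before the start to 50 after it) that element occurs once, beginning 247 bases before the start site, and stands in capitals.
Cirbp promoter: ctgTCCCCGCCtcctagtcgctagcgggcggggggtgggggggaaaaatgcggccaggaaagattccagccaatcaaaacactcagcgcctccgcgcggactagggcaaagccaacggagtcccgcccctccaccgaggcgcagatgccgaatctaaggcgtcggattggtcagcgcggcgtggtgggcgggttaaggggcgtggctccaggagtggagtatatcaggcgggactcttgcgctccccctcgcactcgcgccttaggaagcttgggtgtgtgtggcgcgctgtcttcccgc
TCCCCGCC on either strand was present in 5.38% of the 32851 RefSeq promoter windows of the same length. GGGCGG, the GC box read by Sp1, occurred 3 times in this Cirbp window and in 35.7% of all windows. Neither the E-box CACGTG (7.15% of windows), the heat shock element GAANNTTC (7.86%), the cyclic AMP element TGACGTCA (1.79%) nor the D-box forms TTATGTAA (0.938%) and TTATGCAA (0.743%) were found in these letters, read on both strands. A second Cirbp window, at chr10:80167921-80168220, held GGGCGG 4 times and no other searched motif.

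Cirbp was the most abundant of the 3 transcripts, ranking 600 of 17871 tested genes by mean CPM, with Rbm3 at rank 3326 and Csdc2 at rank 9514. Per kilobase of exon, the scale on which genes can be compared, Cirbp averaged 89.8 CPM per kb in KO and 97.3 CPM per kb in WT. Rbm3 averaged 12.1 CPM per kb in KO and 13.3 CPM per kb in WT. Csdc2 averaged 1.73 CPM per kb in KO and 1.43 CPM per kb in WT. Each Cirbp value rested on 5116 counts or more and each Rbm3 value on 1179 or more, whereas Csdc2 had 93 to 534 counts per library.

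Cirbp differed little between group means, while single libraries ran from 178 to 341 CPM. In KO photoreceptors it stood at 245, 213, 229 and 341 CPM at CT19, at 188, 196, 222 and 265 CPM at CT22, at 205, 249, 274 and 241 CPM at CT1, and at 178, 259, 216 and 222 CPM at CT10. In WT photoreceptors it stood at 266, 244, 218 and 243 CPM at CT19, at 234, 269, 288 and 206 CPM at CT22, at 233, 237, 261 and 226 CPM at CT1, and at 283, 282, 301 and 260 CPM at CT10. The KO and WT libraries overlapped at CT19, CT22 and CT1, and at CT10 all 4 KO libraries lay below all 4 WT libraries, by as little as 259 against 260 CPM. Over all tested genes, 9.08% had every KO library below every WT library at CT10.

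The highest and lowest group means of Cirbp differed by a factor of 1.18 in each genotype. In KO the CT19 and CT22 means were 257 ± 57.6 and 218 ± 34.6 CPM, and those of CT1 and CT10 were 242 ± 28.4 and 219 ± 33.0 CPM (SD over 4 libraries, here and below). In WT the night means were 243 ± 19.6 CPM (CT19) and 249 ± 36.4 CPM (CT22), the dawn mean 239 ± 15.4 CPM and the late-day mean 282 ± 17 CPM. WT at CT10 was the highest of the 8 groups and KO at CT22 the lowest, and no 2 neighbours in that order were further apart than the spread within groups (0.19, SD on the log2 scale). The fitted late-day minus night difference, CT10 minus the mean of CT19 and CT22, was -0.11 (SE 0.11) in KO and 0.20 (SE 0.11) in WT on the log2 scale.

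The KO minus WT difference of Cirbp was -0.36 (SE 0.13) at CT10, a level 22.3% lower in KO, and -0.12 (SE 0.06) over the mean of the 4 times. At the other times it was 0.08 at CT19, -0.20 at CT22 and 0.02 at CT1 (SE 0.13 each). Without KO CT19 replicate 5, the library at 341 CPM, the CT19 difference was -0.07. The CT22 difference was -0.30 without KO CT22 replicate 4 and -0.11 without WT CT22 replicate 3. With the level of inner retina markers (bipolar, Müller glia and amacrine) as a covariate the CT10 difference was -0.17 (SE 0.17), and with the amacrine markers alone -0.13 (SE 0.15).

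**Figure D1:**
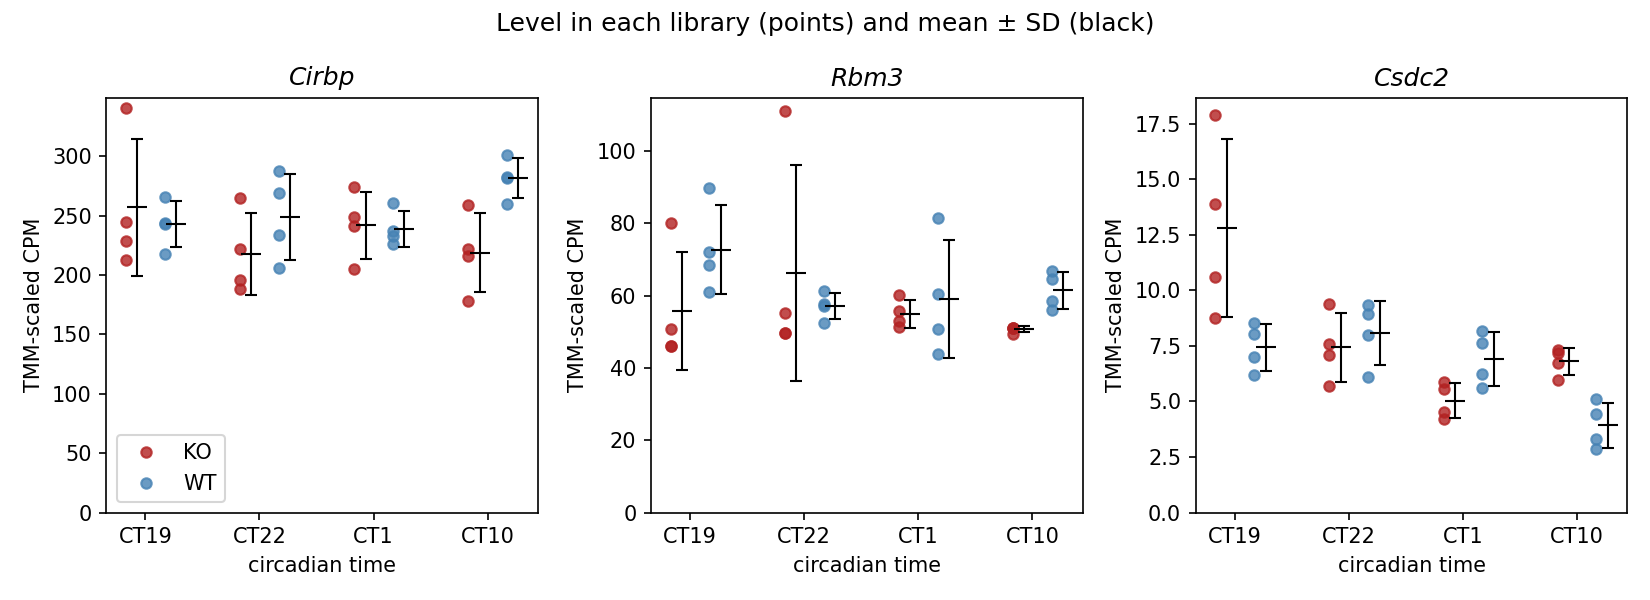
TMM-scaled CPM of Cirbp, Rbm3 and Csdc2 (y axes, linear from 0) in each library at CT19, CT22, CT1 and CT10, KO left of WT at each time, with the mean ± SD of each group of 4 in black. Cirbp at CT10 lies between 178 and 259 CPM in KO and between 260 and 301 CPM in WT, 2 KO libraries stand high for Rbm3 (80.2 CPM at CT19 and 111 CPM at CT22), and Csdc2 is as high as 17.9 CPM in KO at CT19 and as low as 2.88 CPM in WT at CT10.

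Rbm3 was level in most KO libraries, with a pair that stood apart. In KO it measured 46.0, 46.1, 50.9 and 80.2 CPM at CT19, 49.7, 49.7, 55.1 and 111 CPM at CT22, 60.3, 51.3, 55.7 and 52.9 CPM at CT1, and 51.2, 49.5, 51.1 and 51.1 CPM at CT10. In WT it measured 68.4, 61.1, 89.8 and 72.1 CPM at CT19, 52.5, 57.6, 61.2 and 57.3 CPM at CT22, 43.8, 60.6, 81.5 and 50.7 CPM at CT1, and 64.5, 56.0, 66.9 and 58.5 CPM at CT10. The 2 high KO libraries were replicate 5 at CT19 and replicate 4 at CT22. KO and WT overlapped at CT19, CT22 and CT1, and all 4 KO libraries at CT10 lay below all 4 WT libraries, which is again the pattern that 9.08% of tested genes showed at that time.

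Mean Rbm3 levels in KO were 55.8 ± 16.4 and 66.4 ± 29.9 CPM in the night groups (CT19, then CT22), 55.0 ± 3.96 CPM at CT1 and 50.7 ± 0.809 CPM at CT10. In WT they were 72.8 ± 12.2 and 57.1 ± 3.56 CPM in the night groups, 59.1 ± 16.4 CPM at CT1 and 61.5 ± 5.07 CPM at CT10. WT at CT19 was the highest of the 8 group means and KO at CT10 the lowest, and the gaps between neighbours (up to 0.21) were all under the spread within groups (SD 0.29, log2 scale). The libraries of KO at CT10 nevertheless lay below those of KO at CT1, the next group up, but only by 51.2 against 51.3 CPM. How many tested genes separate these groups in this way was not counted.

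Over the mean of the 4 times, Rbm3 differed between KO and WT by -0.14 (SE 0.10) on the log2 scale, and by -0.23 without KO CT22 replicate 4 or -0.09 without WT CT1 replicate 4. By time it was -0.39 (CT19), 0.22 (CT22), -0.10 (CT1) and -0.28 (CT10), with an SE of 0.21 each. The CT19 value was -0.60 without KO CT19 replicate 5 and -0.27 without WT CT19 replicate 3. Single libraries set the sign at 2 of these times: without KO CT22 replicate 4 the CT22 value was -0.14, and without WT CT1 replicate 4 the CT1 value was 0.09. The late-day minus night difference was -0.26 (SE 0.18) in KO and -0.07 (SE 0.18) in WT, and -0.09 in KO without KO CT22 replicate 4. With the inner retina marker level as a covariate the KO minus WT difference at CT10 was 0.28 (SE 0.24) and the WT late-day difference -0.55 (SE 0.21), so the sign at CT10 turned.

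The genes with the pattern most like that of Rbm3 over these 32 libraries were high where Rbm3 was high, as the way they were picked requires, and 3 of them are given for their size only. In KO CT22 replicate 4, where Rbm3 was 2.16 times the mean of the other 3 libraries of its group, Akap8, a nuclear anchoring protein of protein kinase A, stood at 291 CPM against 169 to 174 CPM in those 3. Pnn, a protein of the splicing machinery at exon junctions, stood at 273 CPM there against 132 to 145 CPM. Zfp207, a zinc finger protein that binds microtubules and splicing factors, stood at 470 CPM against 254 to 261 CPM. In KO CT19 replicate 5 the same 3 genes stood at 259 CPM against 171 to 179 CPM, 233 CPM against 130 to 143 CPM and 362 CPM against 230 to 282 CPM. Only WT CT1 replicate 5 held the highest CPM of all 32 libraries for more tested genes (10.5%) than KO CT22 replicate 4 (6.99%) and KO CT19 replicate 5 (6.11%). The smallest share was 0.979%. KO CT22 replicate 4 and KO CT19 replicate 5 also held the lowest CPM for 7.17% and 6.27% of tested genes, where shares ran from 1.07% to 7.17%. Their part in the Rbm3 values was not tested beyond leaving them out.

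The library titles carry running numbers that fall into 4 sets of 8, each with 1 library of every group, and what these sets mark is not given. Rbm3 stood on average 0.23 above its group means (log2) in the set that holds KO CT19 replicate 5, KO CT22 replicate 4 and WT CT1 replicate 4, and between 0.14 and 0.03 below them in the other sets. Cirbp was 0.12 above its group means in that same set. Taking the sets as a block moved none of the fitted genotype or late-day differences of Cirbp, Rbm3 or Csdc2 by more than the spread within groups.

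Csdc2 varied most among the groups, by a factor of 2.54 over the times in KO and 2.06 in WT. In KO it measured 10.6, 17.9, 13.9 and 8.75 CPM at CT19, 7.07, 9.40, 7.58 and 5.69 CPM at CT22, 4.21, 5.86, 4.54 and 5.54 CPM at CT1, and 5.95, 6.75, 7.33 and 7.18 CPM at CT10. In WT it measured 8.55, 7.01, 6.19 and 8.03 CPM at CT19, 6.12, 9.34, 8.92 and 8.0 CPM at CT22, 8.18, 6.25, 7.63 and 5.59 CPM at CT1, and 4.42, 2.88, 3.32 and 5.10 CPM at CT10. All 4 KO libraries lay above all 4 WT libraries at CT19 and again at CT10, and the genotypes overlapped at CT22 and CT1. The same separation with KO higher was seen for 5.52% of tested genes at CT19 and for 10.5% at CT10.

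Group means of Csdc2 in KO were 12.8 ± 4.02 and 7.43 ± 1.54 CPM in the night groups (CT19, then CT22), 5.04 ± 0.786 CPM at CT1 and 6.80 ± 0.619 CPM at CT10. In WT they were 7.44 ± 1.06 and 8.09 ± 1.43 CPM in the night groups, 6.91 ± 1.20 CPM at CT1 and 3.93 ± 1.02 CPM at CT10. KO at CT19 stood above the next group, WT at CT22, by 0.62 on the log2 scale, more than the spread within groups (SD 0.29). KO at CT10 stood 0.44 above KO at CT1, and KO at CT1 0.38 above WT at CT10, the lowest group. The other neighbours differed by 0.11 or less.

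The KO minus WT difference of Csdc2 was 0.78 (CT19), -0.12 (CT22), -0.46 (CT1) and 0.79 (CT10) on the log2 scale with an SE of 0.20 each, and 0.25 (SE 0.10) over the mean of the 4 times. Late day minus night was -0.52 (SE 0.18) in KO and -0.98 (SE 0.18) in WT. Leaving out any 1 library kept the difference between 0.58 and 0.93 at CT19 and between 0.66 and 0.94 at CT10. In the test across all genes for any difference among the 4 times within KO (edgeR's quasi-likelihood test, Benjamini-Hochberg adjusted p under 0.05), Csdc2 was the single gene called, 0.00560% of those tested. That call is part of what was known when Csdc2 was chosen and is not read as a result. It was lost, with 0 genes called, when replicate numbers or title sets were a block, when KO was fitted alone, and with the inner retina markers, the inner retina and lens markers, or the amacrine markers as covariates. It was also lost without KO CT1 replicate 1, 5 or 6 or KO CT19 replicate 3 or 4. DESeq2 called 183 genes in that comparison, or 1.02%, Csdc2 among them.

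Markers of inner retinal cells moved with Csdc2, and so, less closely than the amacrine ones, did those of red blood cells, endothelium and microglia. All 8 amacrine cell markers on the list were detected in every library, and their summed level in KO was 144 to 198 CPM (CT19), 124 to 156 CPM (CT22), 109 to 127 CPM (CT1) and 116 to 143 CPM (CT10). In WT it was 115 to 149 CPM (CT19), 130 to 162 CPM (CT22), 109 to 143 CPM (CT1) and 77.8 to 101 CPM (CT10). The highest group for both Csdc2 and these markers was KO at CT19, the second WT at CT22 and the last WT at CT10. Over the 32 libraries, which share their scaling, Csdc2 and the mean log2 level of the amacrine markers had a Pearson r of 0.91. It was 0.81 after each group's mean was removed. Over the same libraries r was 0.68 for Müller glia, 0.68 for red blood cell, 0.67 for bipolar and 0.56 for horizontal cell markers. Endothelium stood at 0.56, ganglion cells at 0.52 and microglia at 0.50. Pigment epithelium (-0.04), lens (-0.29) and photoreceptor markers (-0.43) did not rise with Csdc2.

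Among the single markers, Csdc2 was most alike to Tfap2a, a transcription factor of amacrine cells (r = 0.91), to Gad1, which makes the transmitter GABA (r = 0.90), and to Pax6 (r = 0.89), and least to the glycine transporter Slc6a9 (r = 0.27). In samples cut by laser, more or fewer inner retinal cells in the cut and more or less RNA per cell cannot be told apart. With the amacrine marker level as a covariate, the KO minus WT difference of Csdc2 was 0.27 (SE 0.16) at CT19 and 0.14 (SE 0.18) at CT10, and its mean over the times was -0.00 (SE 0.08). The late-day difference was then -0.19 (SE 0.13) in KO and -0.20 (SE 0.18) in WT. The CT1 difference stayed at -0.44 (SE 0.14). Expressed as the Csdc2 level minus the mean amacrine marker level (log2), the groups ran from -0.32 ± 0.27 in KO at CT1 to 0.20 ± 0.20 in KO at CT19, with WT groups between -0.14 ± 0.16 at CT22 and 0.12 ± 0.17 at CT1 (SD, n = 4 each).

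**Figure D2:**
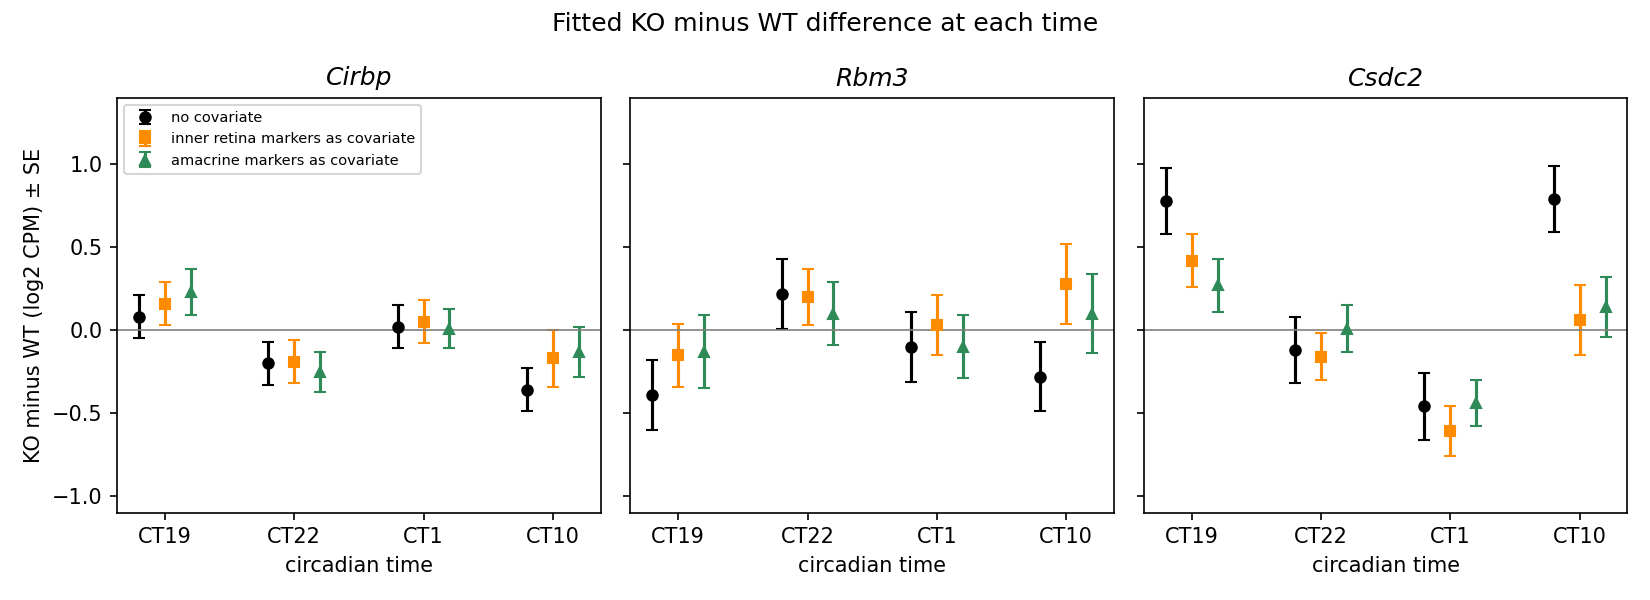
Fitted KO minus WT difference (log2 CPM, y axis) ± SE at each circadian time for Cirbp, Rbm3 and Csdc2, without a covariate (black), with the inner retina marker level (orange) and with the amacrine marker level (green) as a covariate. The Csdc2 difference at CT10 is 0.79 without a covariate, 0.06 with the inner retina markers and 0.14 with the amacrine markers, and the Csdc2 difference at CT1 stays between -0.61 and -0.44.

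The 3 transcripts did not follow each other closely. Cirbp and Rbm3 had a Pearson r of 0.43 over the 32 libraries, with 0.52 over the 16 KO libraries and 0.11 over the 16 WT libraries. Cirbp and Csdc2 had r = -0.24 and Rbm3 and Csdc2 r = -0.23. These are descriptions over libraries that share depth scaling and groups.

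Genes with the most similar pattern were then read from 10590 tested genes with an average log2 CPM of at least 1, as the 5 highest and 3 lowest Pearson r with each gene over the 32 libraries. For Cirbp they included Dcaf15, Zfp28, Slc25a28 and Tmem186 (r = 0.81 each). Slc25a28 is a mitochondrial iron carrier. The most opposite were Fam102b (r = -0.76), Prkd3 (r = -0.75) and Nin (r = -0.73). Exons of Tmem186 overlap Pmm2 on the opposite strand, so its counts are less certain.

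For Rbm3 the nearest genes were Akap8 (r = 0.94), Zfp207 (r = 0.93), and Pnn, Hnrnpa1 and Trmt2a (r = 0.92 each). Hnrnpa1 is a splicing repressor with many near-identical pseudogenes, and Trmt2a, a tRNA methyltransferase, shares exons with Dgcr8 and Ranbp1 on the other strand, so both are uncertain. After each group's mean was removed, r was 0.94 to 0.96 for these 5. The most opposite genes were Rpa1, a subunit of the single-strand DNA-binding replication protein A (r = -0.79), Ywhab (r = -0.77) and Zfp706 (r = -0.76). The 4 libraries highest for Rbm3 were also the 4 highest for Akap8.

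For Csdc2 the nearest genes included Diras1 (r = 0.96), Hpca, which encodes the neuronal calcium sensor hippocalcin (r = 0.94), and Tfap2a and the neuronal kinase Mapk10 (r = 0.91 each). Within groups r was 0.81 to 0.89 for these 4. The most opposite was Crb1, a polarity protein of photoreceptors and Müller glia (r = -0.80), followed by Recql and Smc4 (r = -0.76 each), and within groups these stood at -0.43, -0.47 and -0.42. Recql shares exons with Pyroxd1 on the other strand.

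**Figure D3:**
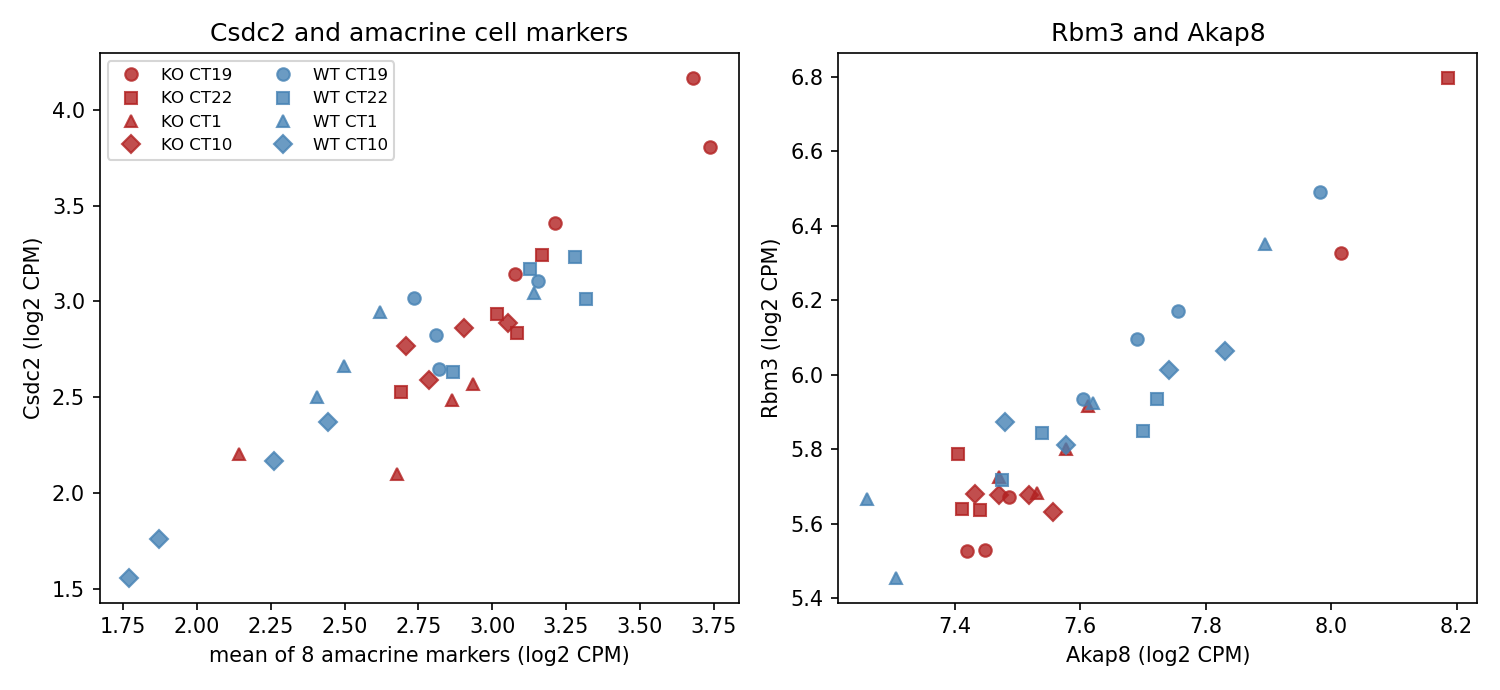
Left, log2 CPM of Csdc2 against the mean log2 CPM of 8 amacrine markers; right, log2 CPM of Rbm3 against Akap8, in the 32 libraries, KO in red and WT in blue, with a symbol for each circadian time. On the left WT at CT10 lies at the low end and KO at CT19 at the high end of one band (r = 0.91), and on the right KO CT22 replicate 4 lies at the top (r = 0.94).

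Related genes were read in 6 lists of 95 genes, 88 of them tested: cold-shock domain relatives, RNA recognition motif relatives, temperature-dependent splicing factors, reported upstream factors and temperature sensors, reported targets, and heat-induced chaperones. Over the mean of the 4 times, 15 of the 88 (17%) were called between KO and WT, 7 higher and 8 lower in KO, against 16.3% of all tested genes, 9.88% higher and 6.40% lower. The median KO minus WT difference was -0.05 over the list genes and -0.00 over all tested genes (log2). For any difference among the times in WT, 11 of 88 (12.5%) were called, against 14.6% of all tested genes. Of these 11, 4 were higher at CT10 than at night and 7 lower, with 7.42% and 7.21% of all tested genes in each direction, and medians of -0.10 over the list genes and -0.01 over all. Both shares were near those of all tested genes.

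No list gene was called for time in KO or for the genotype by time interaction by edgeR's quasi-likelihood test. At an unadjusted p under 0.05, edgeR gave 8 of 88 (9.09%) for time in KO, against 10.4% of all tested genes, and 15 of 88 (17%) for the interaction, against 16.5%. DESeq2 called 2 of 88 (2.27%) for time in KO, against 1.02% of all tested genes, and 4 of 88 (4.55%) for the interaction, against 5.11%. Over all tested genes edgeR called 1.62% for the interaction.

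**Figure D4:**
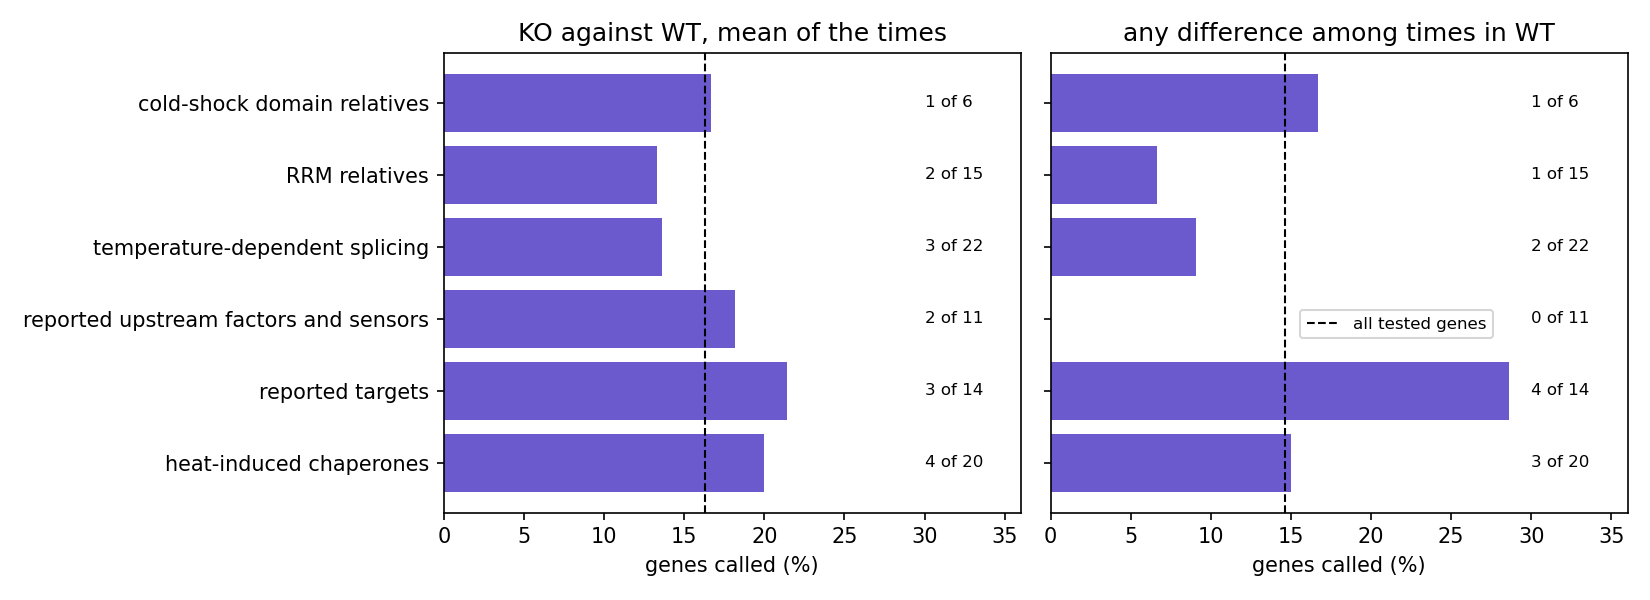
Share of the tested members of each list that were called (x axis, percent, bars from 0, with counts beside them) for the genotype difference averaged over times (left) and for any difference among the times in WT (right), with the share over all tested genes as a dashed line. The left bars lie between 13.3% and 21.4% around the dashed line at 16.3%, and the right bars between 0 of 11 and 4 of 14 around the line at 14.6%.

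Among the cold-shock domain relatives of Csdc2, 1 of 6 (16.7%) was called between genotypes and 1 of 6 for time in WT. Of all tested genes 16.3% and 14.6% were called. The relative called was Ybx3 both times. Ybx3, a Y-box protein that binds DNA and messages, averaged 831 ± 80.7 CPM in KO and 1030 ± 147 CPM in WT (SD, n = 16 each), a difference of -0.30 (SE 0.05, edgeR adjusted p = 3.64e-05). In WT it fell by day, with 1190 ± 99.6 CPM at CT19, 1050 ± 86.7 CPM at CT22, then 1040 ± 57.8 CPM at CT1 and 836 ± 47.4 CPM at CT10 (edgeR adjusted p = 0.00311). In KO its group means lay between 803 and 854 CPM, and its interaction had an edgeR adjusted p of 0.163. Both Ybx3 calls held under every alternative and without any single library.

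Among the 15 RNA recognition motif relatives of Cirbp and Rbm3, 2 (13.3%) were called between genotypes, both lower in KO. Of all tested genes 16.3% were called, 6.40% lower. Ewsr1, a FET-family protein, averaged 227 ± 17.9 CPM in KO and 249 ± 21.4 CPM in WT (-0.13, SE 0.04, edgeR adjusted p = 0.0369), and Rbm14, a paraspeckle protein, 42.6 ± 3.08 CPM in KO and 47.3 ± 8.27 CPM in WT (-0.14, SE 0.05, edgeR adjusted p = 0.0405). These calls were lost without 14 and 15 of the 32 libraries in turn, at edgeR adjusted p up to 0.0813 and 0.0758. They were also lost under 6 and 5 of the other settings, and with inner retina markers as a covariate the differences were -0.06 and -0.08 (edgeR adjusted p = 0.619 and 0.544). Rbm14 was also called for time in WT, with means of 56.9 ± 8.29, 49.0 ± 2.75, 44.1 ± 5.18 and 39.5 ± 4.16 CPM from CT19 through to CT10 (edgeR adjusted p = 0.00159), a call lost with the lens, the amacrine or the inner retina and lens markers as covariates (edgeR adjusted p 0.0566 to 0.124).

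Of the 22 splicing factors, 3 (13.6%) were called between genotypes, against 16.3% of all tested genes. Srpk2, a kinase of SR proteins, was higher in KO at 293 ± 45.1 CPM against 219 ± 26.1 CPM in WT (0.42, SE 0.06, edgeR adjusted p = 1.31e-05), and Hnrnph3 at 179 ± 20.8 CPM in KO against 157 ± 20.2 CPM in WT (0.20, SE 0.05, edgeR adjusted p = 0.0127). Both calls held under every alternative, but both genes share exons with an opposite gene, Kmt2e and Rufy2, whose total counts were 133% and 31.7% of theirs. Hnrnpf was lower at 35.4 ± 2.61 CPM in KO against 39.1 ± 4.11 CPM in WT (-0.14, SE 0.05, edgeR adjusted p = 0.0323), a call lost without 8 of the 32 libraries in turn and under 5 other settings (edgeR adjusted p up to 0.423). In WT, Srsf9 stood at 49.5 ± 2.51 CPM at CT19 and 33.4 ± 2.03 CPM at CT10, and Tra2a at 244 ± 33.0 and 164 ± 15.6 CPM (edgeR adjusted p = 0.0106 and 0.0104 over the times). The Srsf9 call was lost without WT CT10 replicate 2 (adjusted p = 0.0524) and the Tra2a call without WT CT19 replicate 3 (adjusted p = 0.0555). Both were also lost with the lens marker level as a covariate (edgeR adjusted p = 0.0681 and 0.162).

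Of the 11 tested upstream factors and sensors, 2 (18.2%) were called between genotypes, against 16.3% of all tested genes. They were the heat-gated ion channels Trpv1 and Trpv2, both near the limit of detection. Trpv2 averaged 0.311 ± 0.113 CPM in KO and 0.103 ± 0.0779 CPM in WT (1.68, SE 0.29, edgeR adjusted p = 1.18e-04), and Trpv1 0.608 ± 0.253 CPM in KO and 0.371 ± 0.130 CPM in WT (0.71, SE 0.19, edgeR adjusted p = 0.0120). The Trpv1 call held under every alternative, and the Trpv2 call was lost with inner retina and lens markers together (edgeR adjusted p = 0.0512). Sp1, the factor reported to act on the cold element of Cirbp, differed by -0.09 (edgeR adjusted p = 0.135) and the heat shock factor Hsf1 by -0.08 (edgeR adjusted p = 0.553). Trpv3, Trpm8, Trpa1 and Trpc5 were too low to be tested.

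Of the 14 tested reported targets, 3 (21.4%) were called between genotypes, all higher in KO, against 16.3% of all tested genes, 9.88% higher. Vegfa, an angiogenic growth factor, averaged 154 ± 18.8 CPM in KO and 115 ± 28.3 CPM in WT (0.43, SE 0.10, edgeR adjusted p = 0.00441), a call that held under every alternative. Ntrk2, the BDNF receptor, averaged 6.14 ± 1.65 CPM in KO and 4.32 ± 2.30 CPM in WT (0.59, SE 0.19, edgeR adjusted p = 0.0282), and 0.06 with inner retina markers as a covariate (edgeR adjusted p = 0.881). The call was also lost without KO CT1 replicate 6 or KO CT22 replicate 2 (adjusted p = 0.0533 and 0.0539). Atr, a DNA damage kinase, differed by 0.17 (SE 0.06, edgeR adjusted p = 0.0416), a call lost without 20 of the 32 libraries in turn and under 5 other settings (edgeR adjusted p up to 0.564). Ewsr1, Hnrnpf and Atr share exons with genes on the opposite strand whose totals were up to 9.02%, 11.6% and 8.87% of theirs. Neither Clock nor Rtn3 was called: Clock, the reported CIRBP target, differed by -0.09 (edgeR adjusted p = 0.183) and Rtn3, the reported RBM3 target, by -0.01 (edgeR adjusted p = 0.869).

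For time in WT, 4 of the 14 targets (28.6%) were called, against 14.6% of all tested genes. Atr measured 30.1 ± 1.06 CPM (CT19), 33.8 ± 3.65 CPM (CT22), 35.9 ± 8.35 CPM (CT1) and 51.1 ± 1.73 CPM (CT10) (edgeR adjusted p = 1.88e-04), a call that held under every alternative. Dyrk1b, a kinase that keeps cells out of the cycle, measured 58.0 ± 3.85, 50.8 ± 2.11, 52.4 ± 4.58 and 67.6 ± 2.39 CPM in that order of times (edgeR adjusted p = 0.00327), and the call was lost with the inner retina markers as a covariate (edgeR adjusted p = 0.0989). Rpa2 was higher at CT10 by 0.43 (SE 0.11, edgeR adjusted p = 0.0292) and is named after its value was seen. Whether that Rpa2 call holds under the alternatives was not checked. Ntrk2 stood at 4.70 ± 1.73, 6.64 ± 1.19, 3.69 ± 2.78 and 2.26 ± 0.916 CPM (edgeR adjusted p = 0.0291), lost without WT CT22 replicate 2 or WT CT10 replicates 2, 4 or 5, and the late-day minus night difference was -1.30 (SE 0.34) without a covariate and 0.06 with inner retina and lens markers as covariates (edgeR adjusted p = 0.951).

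Heat-induced chaperones have messages that rise with warmth, where those of Cirbp and Rbm3 rise with cold. Between genotypes 4 of 20 were called, all lower in KO, against 16.3% of all tested genes, 6.40% lower. Whether temperature had a part in this was not tested. Hsp90aa1, the inducible form of HSP90, averaged 916 ± 114 CPM in KO and 1110 ± 175 CPM in WT (-0.28, SE 0.06, edgeR adjusted p = 0.00155), and its partner Stip1 101 ± 9.99 CPM in KO and 115 ± 16.3 CPM in WT (-0.18, SE 0.05, edgeR adjusted p = 0.0201). Hspa1a, the inducible HSP70, averaged 35.4 ± 5.26 CPM in KO and 42.0 ± 7.42 CPM in WT (-0.25, SE 0.07, edgeR adjusted p = 0.0191), and Hspa1b 24.3 CPM in KO and 28.4 CPM in WT. Hspa1a and Hspa1b are nearly identical, so their counts, and with them their calls, cannot be separated with certainty. The list median was -0.10 (log2). The 3 calls with full values were lost with inner retina markers as a covariate (edgeR adjusted p = 0.0843, 0.241 and 0.167 in the order given), where the differences were -0.23, -0.16 and -0.25.

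For time in WT, 3 of 20 chaperones were called, a share close to the 14.6% of all tested genes. Hsp90aa1 stood at 1120 ± 194 CPM at CT19 and 918 ± 55.7 CPM at CT10, and Stip1 at 124 ± 15.9 and 95.6 ± 7.56 CPM (edgeR adjusted p = 0.0491 and 0.0400 over the times), calls lost without 18 and 8 of the 32 libraries in turn and under 6 other settings each (edgeR adjusted p up to 0.449 and 0.415). Hspb1, a small heat shock protein also abundant in lens, stood at 0.842 ± 0.477, 2.52 ± 3.59, 13 ± 10.2 and 8.52 ± 4.75 CPM (edgeR adjusted p = 0.0378), beside mean summed lens markers of 712, 1320, 6880 and 4860 CPM in the same WT groups. With the lens marker level as a covariate its late-day minus night difference was 0.13 (edgeR adjusted p = 0.951), against 2.54 without that covariate, and the call was also lost without 12 of the 32 libraries in turn.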

How the data were processed

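The values are raw read counts per Ensembl gene, deposited by the authors in 1 table for all 32 libraries. The submitters' processing notes name HTSeq 0.11, HISAT2 2.1.0, Trimmomatic 0.32 and Cufflinks with build GRCm38.p6. Neither step order, annotation release nor strand setting is given in the sources used here. Symbols came from GENCODE for GRCm38 (99.9% of identifiers). The genes, lists and tests were chosen with earlier results of these data known.

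Counts were fitted in R 4.3.3 with edgeR 4.0.16: filterByExpr (minimum count 10, minimum total 15), TMM scaling, 1 mean per group over the 32 libraries (24 residual degrees of freedom, biological coefficient of variation 0.199), robust quasi-likelihood tests and Benjamini-Hochberg adjustment over 17871 genes, called at adjusted p under 0.05. Log2 CPM used a prior count of 2. In each list and test up to 3 called genes with the smallest p were named, and Rpa2, Hspa1b, Clock, Rtn3, Sp1, Hsf1 and the genes too low to be tested were named outside that rule. A few genes picked in this way are not reported here. Simulated counts with known changes were used to test the fit. P-values treat libraries as separate animals, as far as titles tell. Alternatives were RLE and upper quartile scaling, DESeq2 1.42.0, no filter, marker levels as covariates, a replicate or title-set block, each genotype alone, and leaving out each library; the amacrine and the joint inner retina and lens covariates were added after seeing the data. Same-numbered replicates did not deviate together (mean r = 0.01).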

Additional observations from a re-analysis of the deposited data

Results flagged for a closer look

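The gap between the most extreme library of a group and its nearest neighbour, as a share of the group's whole range, was read in the 24 groups of 4 values (3 genes in 8 groups). The genes were chosen with these values known, so this is a description of single libraries and no test, and nothing is read from which gene or genotype holds them. The gap passed Dixon's limit in 3 groups, a limit that chance passes in about 1 in 20 groups. Rbm3 stood at 111 CPM in KO CT22 replicate 4 and at 80.2 CPM in KO CT19 replicate 5, both high. It stood at 49.5 CPM in KO CT10 replicate 3, which is low only beside 3 values that lie between 51.1 and 51.2 CPM.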

How the results depend on the processing

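Differences are log2. Of 24 results for named list genes, 7 kept their call under every alternative and without every library. With the inner retina, inner retina and lens, and amacrine covariates, genes called between KO and WT numbered 811, 616 and 1256 (2909 without), for time in WT 1252, 411 and 407 (2615 without; 1656 with WT fitted alone), for the interaction 145, 4 and 133 (289 without; 128 with lens, 913 by DESeq2), and for time in KO 0 each (1 without; 183 by DESeq2, 5 with no filter, 0 with KO fitted alone or title sets as a block). List genes called between KO and WT were 9 with no filter, 7 with inner retina and 5 with inner retina and lens; for time in WT 17 by DESeq2, 7 with inner retina, 3 with lens, 2 with both and 4 with amacrine; for time in KO 2 and for the interaction 4 by DESeq2, and 1 with title sets. Late day minus night in WT was -0.00 (inner retina and lens) and -0.08 (amacrine) for Cirbp, -0.55 (inner retina), -0.39 (with lens) and -0.52 (amacrine) for Rbm3, and -0.33, -0.33 and -0.20 for Csdc2; in KO it was -0.19 for Csdc2 (amacrine). The mean KO minus WT difference of Csdc2 was -0.07 (inner retina) and -0.08 (with lens). Ntrk2 over the times in WT turned to 0.06 with inner retina and lens. The cause of these shifts was not tested.

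Replicate numbers did not pair the libraries (r of deviations -0.21 to 0.30). With them as a replicate block, 0 genes were called for time in KO and 1 list gene for the interaction, and 3069, 2237 and 308 genes for genotype, time in WT and interaction.

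Leaving out 1 library gave 2456 to 3278 genes between KO and WT, 1563 to 3144 for time in WT, 0 to 29 for time in KO (29 without KO CT19 replicate 5, 0 or 2 without any of 9 other libraries) and 142 to 429 for the interaction; list genes were 10 to 21, 5 to 14, 0 and 0 to 3. Mean KO minus WT ran from -0.16 to -0.09 for Cirbp, -0.23 to -0.09 for Rbm3 and 0.20 to 0.29 for Csdc2, late day minus night in KO from -0.20 to -0.03, -0.33 to -0.09 and -0.60 to -0.43, and in WT from 0.15 to 0.23, -0.11 to -0.01 and -1.13 to -0.85. Csdc2 had as few as 93 counts in a library. The SE of its KO minus WT difference at each time was 0.20, against 0.21 for Rbm3 and 0.13 for Cirbp.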
